A study of Mus musculus with 6 samples.

Results

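The genes described here are 9 genes whose human counterparts cause developmental and epileptic encephalopathy, the group of severe early epilepsies to which CYFIP2 disease also belongs. They were chosen by name: Pcdh19, Dnm1, Kcnt1, Hnrnpu, Eef1a2, Slc12a5, Sptan1, Chd2 and Tbc1d24. All 9 were found in the table of 18160 genes and passed the filter for testing, a mean of 10 normalized counts over the 6 samples, as did 15151 genes in all. The samples were 3 prefrontal cortices of mice heterozygous for a Cyfip2 mutation and 3 of wild-type mice, all C57BL/6J adults of postnatal day 56. The labels name the mutant genotype as a CYFIP2 heterozygote and do not describe the allele, and nothing in them states whether each sample is its own animal, so the p-values reflect sample-to-sample spread, which may be technical. A normalized count is the authors' read estimate for a gene after scaling between samples.

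Epileptic encephalopathy genes act at different places in a neuron. In the synapse, dynamin 1 (Dnm1) cuts endocytic vesicles from the presynaptic membrane and TBC1D24 takes part in vesicle traffic. At the membrane, KCC2 (Slc12a5) exports chloride so that GABA inhibits mature neurons, KCNT1 is a sodium-activated potassium channel, and protocadherin 19 (Pcdh19) is a cell adhesion molecule. Alpha-II spectrin (Sptan1) is part of the actin-bound membrane skeleton, eEF1A2 delivers aminoacyl-tRNA to ribosomes in neurons and muscle, and hnRNP U (Hnrnpu) and CHD2 act in the nucleus on RNA and chromatin. CYFIP2 is a subunit of the WAVE complex, which drives branching of actin filaments.

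No change of the 9 genes in the heterozygous cortex passed the test. Adjusted p values lay between 0.948 and 0.997 by limma-trend, a linear model per gene on log2(normalized count + 1) with Benjamini-Hochberg adjustment over all tested genes, against a threshold of 0.05. Over all genes, 0.0132% passed. Of the 9 genes, 1 (Hnrnpu, 11.1%) had an unadjusted p under 0.05, where 5.07% of all tested genes did. The heterozygous level was between 95.3% (Slc12a5) and 111% (Hnrnpu) of wild type, with 6 genes above and 3 below. The median log2 fold change (heterozygous minus wild-type) was 0.04, beside 0.002 over all tested genes, and the median size of the change regardless of sign was 0.07 for the 9 genes and 0.07 for all genes.

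**Figure D1:**
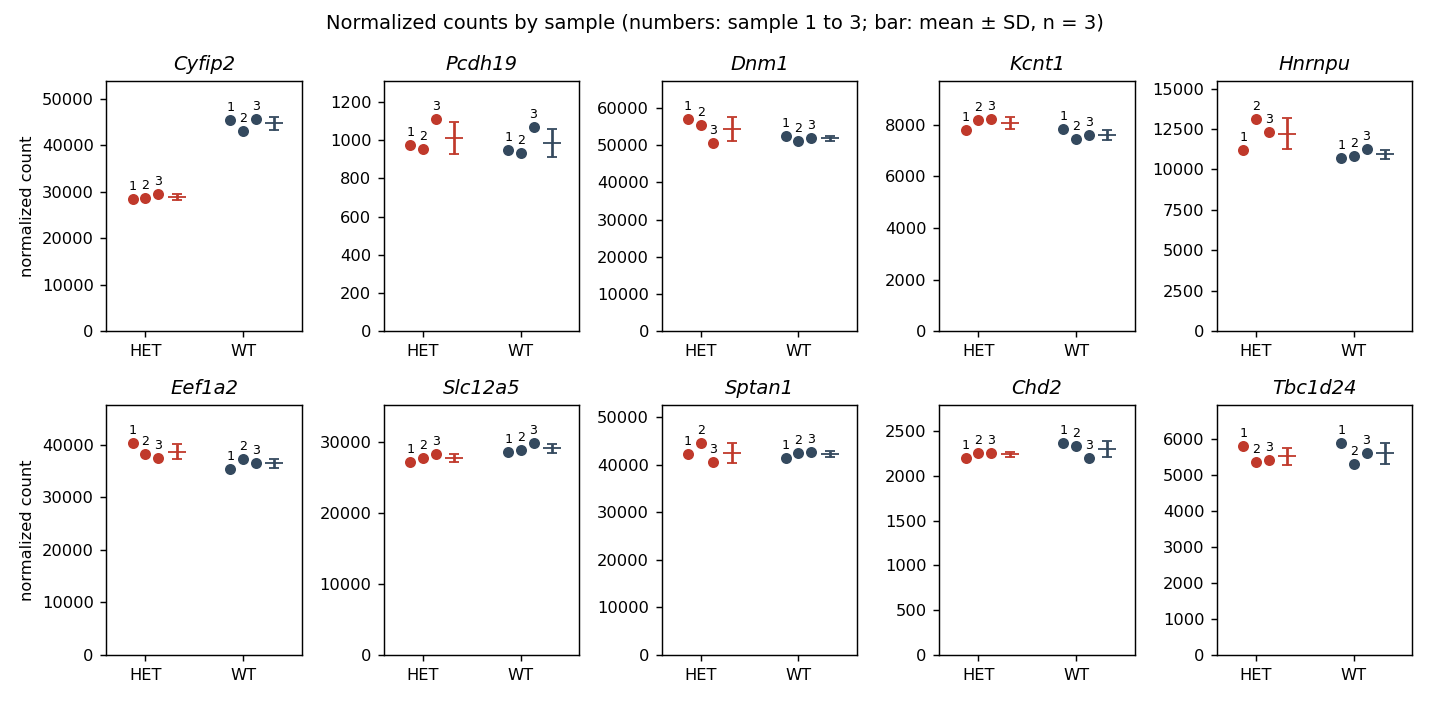
Normalized counts (vertical axes, from 0) of Cyfip2 and the 9 genes in each heterozygous (HET) and wild-type (WT) sample, with sample numbers over the points and the mean ± SD (n = 3) beside them. Cyfip2 separates the genotypes widely, while the samples of both genotypes overlap for 7 of the 9 other genes.

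Cyfip2 gives the scale for these values. Its normalized count was 28356, 28578 and 29567 in heterozygous samples 1, 2 and 3, against 45454, 43174 and 45627 in wild-type samples 1, 2 and 3. Heterozygous samples thus held 64.4% of the wild-type level, with a 95% interval of 59.7% to 69.5% (adjusted p = 0.00269 by limma-trend). Fitted by limma without the trend, the adjusted p was 0.15 at the same log2 fold change of -0.63, and over the 14 alternatives it ran from 0.00085 to 0.15. The intervals of all 9 genes lay above that of Cyfip2. The lowest bound among them was 88.6% of wild type (Slc12a5) and the highest was 123% (Hnrnpu), so a loss of the size seen for Cyfip2 is outside every interval, while differences of several percent are not resolved. The median half-width of the intervals was 0.12 on the log2 scale, and the widest interval was that of Pcdh19.

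**Figure D2:**
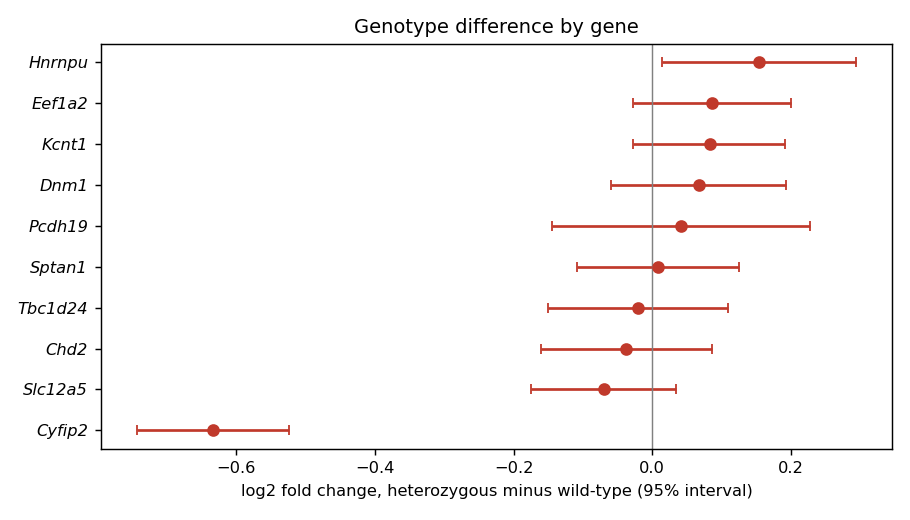
Log2 fold changes, heterozygous minus wild-type (horizontal axis), of Cyfip2 and the 9 genes with 95% intervals from limma-trend. The intervals of 8 of the 9 genes include 0, that of Hnrnpu runs from 0.015 to 0.295, and that of Cyfip2 lies far to the left at -0.74 to -0.52.

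Dnm1, the vesicle fission enzyme of the nerve terminal, had normalized counts of 56969, 55464 and 50617 in heterozygous samples 1, 2 and 3, against 52478, 51105 and 51899 in wild-type samples 1, 2 and 3. Heterozygous sample 3 was the lowest of all 6 and heterozygous samples 1 and 2 the highest, so the wild-type values lay inside the heterozygous range. On the log2 scale the difference was 0.07 ± 0.06 (SE), with a 95% interval of -0.06 to 0.19. The coefficient of variation between samples was 6.11% in heterozygous and 1.33% in wild-type samples. Of its paralogues, Dnm2, the widely expressed dynamin, was at 0.05 ± 0.07 (SE), and Dnm3, a dynamin of brain and testis, at 0.01 ± 0.06 (SE). Per kilobase of the longest coding transcript, Dnm1 made up 89.3%, 89.8% and 88.4% of the summed dynamin level in heterozygous samples and 88.9%, 88.9% and 88.9% in wild-type samples. The spread was wider among heterozygous samples, and the wild-type shares fell inside it (exact two-sided permutation p = 0.7).

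Dnm1 and Dnm2 are alike enough that the sharing of reads was examined. Their coding sequences are 78.9% identical over 2541 aligned bases (GENCODE M21). The longest stretch they share without a difference spans coding bases 1763 to 1796 of both and is shown as the place in the coding sequence where a read is hardest to assign to one of them.

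Dnm1 and Dnm2 shared run: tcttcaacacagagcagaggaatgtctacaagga

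This run has 34 bases. Over whole transcripts, 8 of the 5561 distinct 31-base words of Dnm1 (0.144%) also occurred in another gene, all 8 of them in Dnm2, so the run is not the only stretch of that length they share. The rest of the synaptic endocytosis list is described by counts. Of 26 genes tested, 15 were above and 11 below wild type, none passed the adjusted threshold, and none had an unadjusted p under 0.05. The smallest p values were those of Ppp3ca, the catalytic subunit of calcineurin that dephosphorylates dynamin, at -0.12 ± 0.06 (SE, log2), and of Sh3gl3, an endophilin, at -0.14 ± 0.08 (SE). The median was 0.0037, beside 0.002 over all tested genes.

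Tbc1d24, which carries a TBC domain and a TLDc domain, had normalized counts of 5807, 5379 and 5414 in heterozygous samples 1, 2 and 3, against 5899, 5314 and 5623 in wild-type samples 1, 2 and 3. Sample 1 was the highest of each genotype, and the groups overlapped over nearly their whole range. Its log2 difference was -0.02 ± 0.06 (SE), with a 95% interval of -0.15 to 0.11. It was 0.02 without wild-type sample 1 and 9.7e-05 if heterozygous sample 2 was omitted. Of the transcript words of Tbc1d24, 3.34% occurred in other genes, most of all in Chek2 (0.731%). The exons of Tbc1d24 overlap those of Ntn3 on the same strand, and Ntn3 was not among the 18160 genes. Of a list of TLDc domain genes, Arf6 and the ephrin receptor gene Ephb2, 5 genes were tested, of which 1 was above and 4 below wild type, and none passed. Arf6, the small GTPase that TBC1D24 binds, was at -0.09 ± 0.06 (SE) and Tldc1 at -0.08 ± 0.11 (SE) on the log2 fold change scale.

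Slc12a5, the chloride exporter KCC2, was lower in each heterozygous than in each wild-type sample. Its normalized counts were 27218, 27768 and 28294 in heterozygous samples 1, 2 and 3, against 28660, 28889 and 29881 in wild-type samples 1, 2 and 3. The genotypes did not overlap, heterozygous sample 3 and wild-type sample 1 being nearest. The log2 fold change was -0.07 ± 0.05 (SE), and the heterozygous mean came to 95.3% of the wild-type one (interval 88.6% to 102%). By limma-trend the adjusted p was 0.951. An exact two-sided permutation of the 6 samples gave p = 0.1, the lowest value this design allows. A separation of this direction was found in 5.3% of all tested genes. Over the 14 alternatives the log2 fold change was between -0.08 and -0.05.

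The summed normalized counts of excitatory neuron markers (8 of 8 genes found, none at 0) were 242715, 253302 and 237049 in heterozygous samples 1, 2 and 3, against 262288, 266842 and 270789 in wild-type samples 1, 2 and 3. None of the 8 markers passed the adjusted threshold, 1 had an unadjusted p under 0.05, and 2 were above and 6 below wild type. The mean of the 8 markers' centred log2 values ordered the samples differently, at -0.03, -0.08 and -0.03 in heterozygous samples and 0.09, -0.02 and 0.08 in wild-type samples, so that heterozygous sample 2 had the highest sum but the lowest mean of its genotype. The summed pan-neuronal markers (7 of 7 found, none at 0) overlapped, at 281409 to 292523 in heterozygous samples and 282598 to 307171 in wild-type samples. The part of either list in the Slc12a5 values was not tested. In bulk tissue, fewer cells of a type and less RNA per cell cannot be told apart.

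The RNA of KCC2 is set against that of NKCC1 (Slc12a2), the chloride importer. In bulk tissue their ratio mixes the RNA of all cell types, so it does not measure the chloride balance of neurons. Slc12a2 differed by -0.02 ± 0.07 (SE, log2). The ratio of Slc12a5 to Slc12a2 per kilobase was 12.1, 12.6 and 12.7 in heterozygous samples 1, 2 and 3, and 13.9, 12.1 and 12.9 in wild-type samples 1, 2 and 3. The groups overlapped, wild-type sample 2 being the lowest of all (exact two-sided permutation p = 0.5). Of 12 tested cotransporters and their WNK and SPAK/OSR1 kinases, 7 were above and 5 below wild type, none passed, and none had an unadjusted p under 0.05. The smallest p values belonged to the low-level Slc12a8, at -0.25 ± 0.17 (SE, log2), and to Slc12a4 at -0.12 ± 0.10 (SE).

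Kcnt1, the sodium-activated potassium channel, had normalized counts of 7797, 8176 and 8214 in heterozygous samples 1, 2 and 3, against 7818, 7429 and 7592 in wild-type samples 1, 2 and 3. Heterozygous samples 2 and 3 were above every wild-type sample, and heterozygous sample 1 was just below wild-type sample 1. On the log2 scale the difference was 0.08 ± 0.05 (SE), with an interval of -0.03 to 0.19 (limma-trend, adjusted p = 0.95). Its paralogue Kcnt2 was at 0.04 ± 0.10 (SE). The ratio of Kcnt1 to Kcnt2 per kilobase was 4.50, 5.67 and 4.59 in heterozygous samples 1, 2 and 3, and 4.41, 5.26 and 4.58 in wild-type samples 1, 2 and 3. Sample 2 was the highest in each genotype (exact two-sided permutation p = 0.6). In the list of related large potassium channels 2 of 4 genes were above wild type and none passed. Kcnmb4, a beta subunit of the BK channel in neurons, was at 0.12 ± 0.06 (SE, log2) and Kcnu1 at -0.11 ± 0.14 (SE).

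Pcdh19, a delta-2 protocadherin, had normalized counts of 976, 954 and 1109 in heterozygous samples 1, 2 and 3, against 949, 934 and 1070 in wild-type samples 1, 2 and 3. Sample 3 was the highest in each genotype and set most of the spread, with coefficients of variation of 8.27% in heterozygous and 7.56% in wild-type samples. Its log2 difference was 0.04 ± 0.08 (SE), with an interval of -0.15 to 0.23, and it was -0.03 without heterozygous sample 3.

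Of the 9 genes listed with Pcdh19, which are protocadherins and the cadherin gene Cdh2, 5 were above and 4 below wild type and none passed. An unadjusted p under 0.05 was found for 3 of the 9, and for 5.07% of all tested genes. Pcdh8, also known as Arcadlin and made after neuronal activity, had normalized counts of 825, 792 and 744 in heterozygous samples 1, 2 and 3, against 684, 577 and 647 in wild-type samples 1, 2 and 3. All heterozygous samples lay above all wild-type samples. Its log2 fold change was 0.31 ± 0.08 (SE) (limma-trend, adjusted p = 0.741). Pcdh11x, an X-linked protocadherin, was at 0.30 ± 0.08 (SE), with 751, 681 and 689 normalized counts in heterozygous and 601, 541 and 582 in wild-type samples (adjusted p = 0.736 by limma-trend). The third was Pcdh17, a delta-2 member like Pcdh19, at 0.15 ± 0.06 (SE), named after its value was seen.

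Sptan1, the alpha-II spectrin gene, had normalized counts of 42268, 44603 and 40552 in heterozygous samples 1, 2 and 3, against 41480, 42469 and 42693 in wild-type samples 1, 2 and 3. The highest and the lowest sample were both heterozygous. The log2 fold change of 0.01 ± 0.05 (SE) had an interval of -0.11 to 0.12, and it was -0.03 without heterozygous sample 2 and -0.005 without wild-type sample 1. The heterozygous level was 101% of wild type.

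Of the 16 tested spectrins, ankyrins, adducins and protein 4.1 genes, 5 were above and 11 below wild type, and none passed. An unadjusted p under 0.05 by limma-trend was found for 2 of the 16, and for 5.07% of all tested genes. With no overlap of samples, 1 lay above and 2 below wild type, against 5.15% and 5.3% of all tested genes. Dmtn, the actin-bundling protein dematin, was at 13956, 13859 and 13888 normalized counts in heterozygous samples and 14994, 14852 and 16014 in wild-type samples. Its log2 fold change was -0.14 ± 0.05 (SE) (limma-trend, adjusted p = 0.925). Sptbn1, the most common beta spectrin of the brain, was at 0.001 ± 0.05 (SE) and is named after its value was seen. The median log2 fold change of the list was -0.03, beside 0.002 over all tested genes.

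Eef1a2, the elongation factor of mature neurons, was higher in each heterozygous than in each wild-type sample, by a narrow gap. Its normalized counts were 40310, 38253 and 37417 in heterozygous samples 1, 2 and 3, against 35424, 37274 and 36506 in wild-type samples 1, 2 and 3. Heterozygous sample 3 and wild-type sample 2 almost met. On the log2 scale the difference was 0.09 ± 0.05 (SE), with an interval of -0.03 to 0.20 (limma-trend, adjusted p = 0.95). Exact two-sided permutation gave p = 0.1, again the lowest possible, and 5.15% of all tested genes separated in this direction. Of the 9 genes, 2 (22.2%) separated in either direction, against 10.5% of all tested genes.

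Eef1a1, the paralogue made in most tissues, had normalized counts of 63521, 62359 and 60411 in heterozygous samples 1, 2 and 3, against 56455, 59252 and 56616 in wild-type samples 1, 2 and 3. Its log2 fold change was 0.11 ± 0.05 (SE) (limma-trend, adjusted p = 0.948). Eef1a2 made up 35.3%, 34.6% and 34.8% of the summed level of both genes per kilobase in heterozygous samples, and 35.1%, 35.1% and 35.7% in wild-type samples. The shares overlapped (exact two-sided permutation p = 0.3). The coding sequences are 80.6% identical over 1384 aligned bases. The first 90 coding bases of each are shown because they let a reader see how reads of this pair are told apart, with capitals at each base that differs.

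Eef1a2: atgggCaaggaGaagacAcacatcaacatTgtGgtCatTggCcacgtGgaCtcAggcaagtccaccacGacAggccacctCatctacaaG
Eef1a1: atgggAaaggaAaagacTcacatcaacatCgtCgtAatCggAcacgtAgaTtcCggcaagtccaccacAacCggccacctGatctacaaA

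These stretches differ at 15 bases, and all 15 lie at the third position of a codon. The longest run shared by the coding parts is 23 bases, and no 31-base word of Eef1a2 occurred in a transcript of another gene. The start of Eef1a2 lies on the minus strand, and RefSeq (GRCm38.p6) places the 250 bases before it at chr2:181157016-181157265. Capitals mark the GC box GGGCGG, sought on both strands, which is held by 32.7% of the 32851 windows of this length in the RefSeq promoter table.

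Eef1a2 promoter: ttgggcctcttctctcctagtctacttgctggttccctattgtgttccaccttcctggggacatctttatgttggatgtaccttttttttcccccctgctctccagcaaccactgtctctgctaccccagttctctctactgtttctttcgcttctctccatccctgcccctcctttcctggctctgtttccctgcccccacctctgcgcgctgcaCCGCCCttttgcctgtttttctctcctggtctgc

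This window has 4 CpG dinucleotides, where the median of all windows is 6, and a single GC box, read on the opposite strand. The list of relatives held 9 tested genes: elongation factors and their partners, the translation factor Eif5a, the valyl-tRNA synthetase Vars and the eEF2 kinase Eef2k. Of these 6 were above and 3 below wild type, and none passed. An unadjusted p under 0.05 was found for 2 (5.07% of all tested genes), and 3 lay above wild type with no overlap (5.15% of all tested genes). Eef1g, the gamma subunit of the exchange complex that reloads eEF1A, was at 7199, 7326 and 7154 normalized counts in heterozygous samples 1, 2 and 3, against 6051, 6867 and 6448 in wild-type samples 1, 2 and 3. All heterozygous samples lay above all wild-type samples, at a log2 fold change of 0.16 ± 0.06 (SE) (limma-trend, adjusted p = 0.914). The median of the list was 0.04.

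Hnrnpu had the largest difference and the smallest p of the 9 genes. Its product binds nascent RNA and chromatin and acts in splicing and chromosome organization. The normalized counts were 11188, 13105 and 12295 in heterozygous samples 1, 2 and 3, against 10695, 10834 and 11265 in wild-type samples 1, 2 and 3. Heterozygous samples 2 and 3 stood above every other sample, and heterozygous sample 1 lay between wild-type samples 2 and 3. Heterozygous over wild-type samples, the log2 fold change was 0.155 ± 0.063 (SE), the interval 0.015 to 0.295, the unadjusted p 0.0332 and the adjusted p 0.948 by limma-trend. Exact two-sided permutation gave p = 0.2. Its log2 difference was 0.10 without heterozygous sample 2 and 0.22 without heterozygous sample 1, and no adjusted p passed over the 14 alternatives. Summed endothelial and pericyte markers (10 of 10 found, none at 0) were also highest in heterozygous sample 2. They were 14542, 17054 and 15305 in heterozygous samples 1, 2 and 3, against 12646, 16379 and 15241 in wild-type samples 1, 2 and 3. Wild-type sample 2 was the next highest for these markers and the next to lowest for Hnrnpu. The summed markers of meninges and fibroblasts, and of choroid plexus and ependyma, were highest in heterozygous sample 2 too. By the mean of centred log2 values, the meningeal list was instead highest in heterozygous sample 1 (0.12). Heterozygous sample 2 (0.041) and wild-type sample 2 (0.04) followed. The endothelial list (0.187) and the choroid plexus list (0.405) stayed highest in heterozygous sample 2 by that mean. The part of these cell types in the Hnrnpu values was not tested.

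By the root-mean-square difference of log2 values centred on the gene mean over the 6 samples, the genes most like Hnrnpu were Cib2 (0.02), Hdx (0.03) and Pnck (0.03), and those most like Eef1a2 were Fnta (0.01), Flcn (0.014) and Mapk8ip3 (0.015), among 12370 genes with a mean of at least 100. With 6 samples, a likeness of this size is a description of these libraries only.

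Of the 22 tested hnRNP genes, 17 were above and 5 below wild type, none passed, and 2 had an unadjusted p under 0.05, against 5.07% of all tested genes. Hnrnph3 was at 1625, 1586 and 1421 normalized counts in heterozygous samples 1, 2 and 3, against 1225, 1370 and 1375 in wild-type samples 1, 2 and 3. Its log2 fold change was 0.22 ± 0.08 (SE) (limma-trend, adjusted p = 0.914). Hnrnpa1, a splicing regulator, was at 0.12 ± 0.05 (SE). The closest relatives of hnRNP U lay near 0, with Hnrnpul1 at -0.02 ± 0.06 (SE) and Hnrnpul2 at -0.01 ± 0.05 (SE). In 6 of the 22 genes all heterozygous samples lay above all wild-type samples, and in none did they all lie below, where 5.15% of all tested genes separated upward and 5.3% downward. The median of the list was 0.04, beside 0.002 over all tested genes.

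The 250 bases before the RefSeq starts of Hnrnpu and of the downstream start of Slc12a5 are shown as the windows of the gene with the largest difference and of the gene that was lower in every heterozygous sample. The upstream window of Slc12a5 overlaps an annotated exon and is given by its counts only. Capitals mark the GC box GGGCGG and the E-box CACGTG, sought on both strands. Hnrnpu lies on the minus strand (chr1:178337816-178338065) and Slc12a5 on the plus strand (chr2:164967738-164967987), on GRCm38.p6.

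Hnrnpu promoter: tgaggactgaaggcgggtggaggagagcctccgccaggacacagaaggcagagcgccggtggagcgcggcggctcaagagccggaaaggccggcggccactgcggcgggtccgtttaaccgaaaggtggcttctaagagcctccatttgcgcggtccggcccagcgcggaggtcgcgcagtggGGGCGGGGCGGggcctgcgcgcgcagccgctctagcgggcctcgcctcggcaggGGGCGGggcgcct
Slc12a5 promoter, downstream start: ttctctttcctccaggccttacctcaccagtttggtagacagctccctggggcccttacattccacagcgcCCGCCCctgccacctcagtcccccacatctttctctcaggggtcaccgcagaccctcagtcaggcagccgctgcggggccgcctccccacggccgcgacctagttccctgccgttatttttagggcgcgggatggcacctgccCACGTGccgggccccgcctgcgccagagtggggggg

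The Hnrnpu window held 3 GC boxes, of which a pair overlaps, and 32 CpG dinucleotides. The downstream Slc12a5 window held 1 GC box and 1 E-box, which 6% of all windows hold, and 16 CpG dinucleotides. Its upstream window held neither motif and 13 CpG dinucleotides. Of the 9 genes, 7 had a promoter in the table, in 9 windows, and 6 of these windows held a GC box. The TATA box TATAAA, sought on both strands, was found in none of the 9 windows and in 12.4% of all windows. These matches describe letters and no binding.

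Chd2, a chromatin remodeller, had normalized counts of 2204, 2257 and 2257 in heterozygous samples 1, 2 and 3, against 2368, 2331 and 2195 in wild-type samples 1, 2 and 3. The heterozygous samples were close together, and wild-type samples 1 and 2 lay above and sample 3 below all of them. Its log2 difference was -0.04 ± 0.06 (SE), with an interval of -0.16 to 0.09. The long noncoding RNA Chaserr (1810026B05Rik in GENCODE), which lies just upstream of Chd2 on the same strand and is known to restrain it, overlaps its exons. It held 17.7% of the distinct 31-base words of Chd2 transcripts, so reads of the pair can be confused. Of the 9 other CHD genes tested, 4 were above and 5 below wild type and none passed or had an unadjusted p under 0.05. Chd1, the closest relative, was at 0.01 ± 0.09 (SE), Chd1l at -0.15 ± 0.09 (SE) and Chd9 at -0.08 ± 0.07 (SE).

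**Figure D3:**
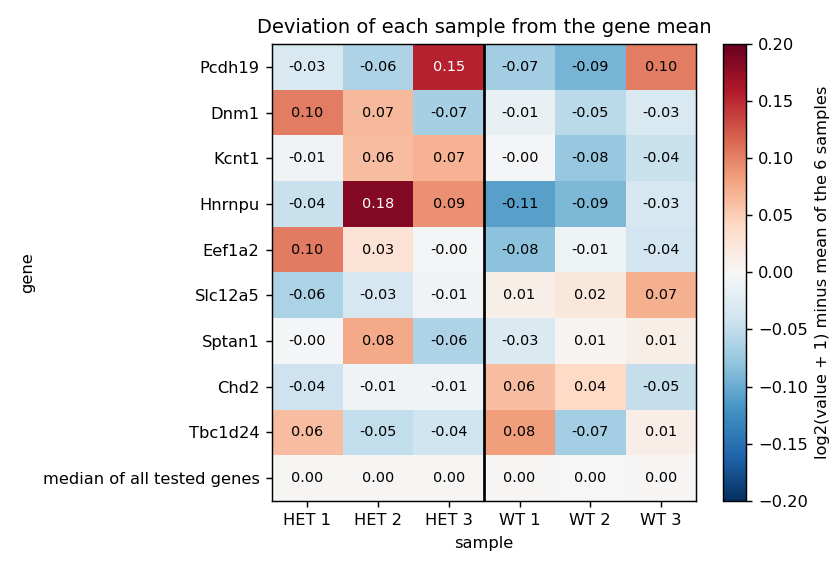
Deviation of each sample (columns) from the mean of the 6 samples for each of the 9 genes (rows), as log2(normalized count + 1), with the median of all tested genes in the last row. Hnrnpu in heterozygous sample 2 (0.18) and Pcdh19 in heterozygous sample 3 (0.15) stand out most, and no sample is high or low in all 9 genes.

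The 9 genes did not follow a common order of samples. The highest value was heterozygous for 6 genes and wild-type for 3, and the lowest was heterozygous for 3 and wild-type for 6. Heterozygous sample 1 was the highest for Dnm1 and Eef1a2, sample 2 for Hnrnpu and Sptan1, and sample 3 for Pcdh19 and Kcnt1. Wild-type sample 2 was the lowest for Pcdh19, Kcnt1 and Tbc1d24 and the highest for none. The spread within groups on the log2 scale was smallest for Slc12a5 (SD 0.03) and largest for Pcdh19 (SD 0.11). The median was 0.11 for all tested genes and 0.078 for tested genes with a mean of at least 1000.

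The levels of the 9 genes, compared per kilobase of the longest coding transcript, differed widely. Eef1a2 was the most abundant, at 18551 ± 715 normalized counts per kb in heterozygous and 17467 ± 446 in wild-type samples (SD, n = 3 each). Dnm1 followed at 11802 ± 721 in heterozygous and 11255 ± 150 in wild-type samples. Sptan1 (5297 in heterozygous, 5265 in wild-type) and Slc12a5 (4605 in heterozygous, 4835 in wild-type) came next. Hnrnpu (1596 and 1431), Kcnt1 (1371 and 1294) and Tbc1d24 (720 and 730) followed, each with the heterozygous mean before the wild-type mean. Chd2 was at 246 in heterozygous and 253 in wild-type samples, and Pcdh19 at 98.5 ± 8.14 in heterozygous and 95.7 ± 7.23 in wild-type samples, the least abundant. The order was the same in both genotypes, and no neighbours in it overlapped between samples of a genotype. With the median length of the coding transcripts in place of the longest, Slc12a5 passed Sptan1 (6292 against 5352 per kb in wild-type samples) and Kcnt1 passed Hnrnpu (1827 against 1431), so those pairs are not ordered by these data.

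**Figure D4:**
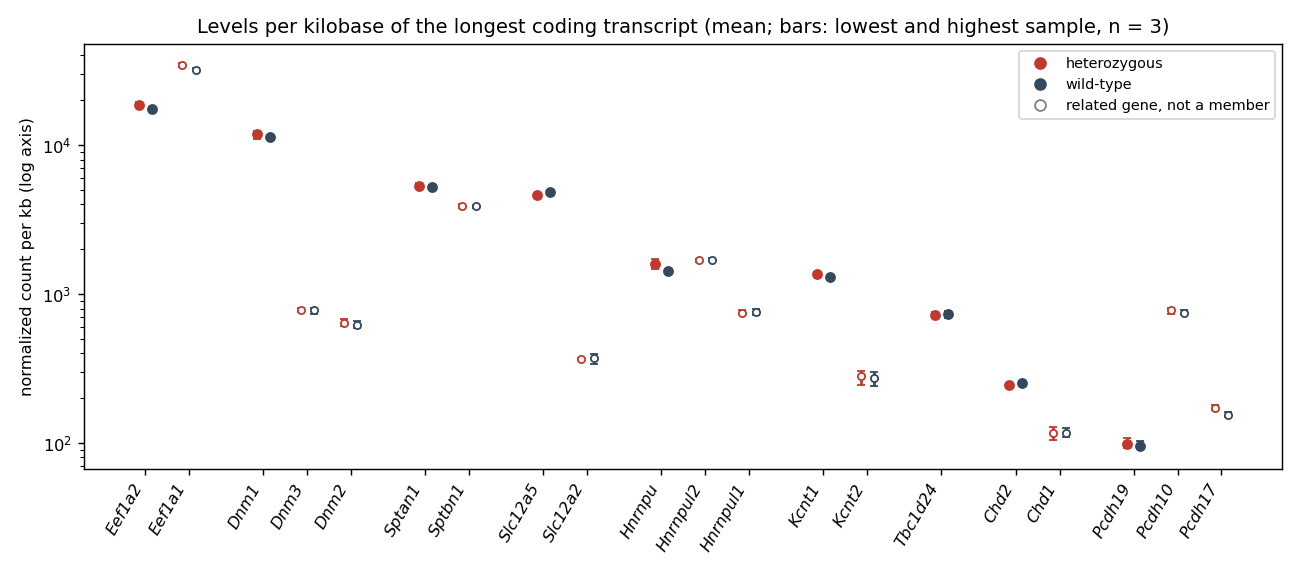
Normalized count per kilobase of the longest coding transcript (log axis) in heterozygous and wild-type samples for the 9 genes (filled) and close relatives (open), as means with bars from the lowest to the highest of 3 samples. Dnm1 stands far above Dnm3 and Dnm2, Eef1a2 below Eef1a1, and Pcdh19 below Pcdh10 and Pcdh17.

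On GRCm38, 5 of the 9 genes lie on chromosome 2. They are Kcnt1 (25863734 to 25918273, plus strand), Sptan1 (29965560 to 30031451, plus strand), Dnm1 (32308471 to 32353338, minus strand), Slc12a5 (164960802 to 164999731, plus strand) and Eef1a2 (181147653 to 181157014, minus strand). Hnrnpu lies on chromosome 1 (178321108 to 178337797), Chd2 on chromosome 7 (73426638 to 73541830), Tbc1d24 on chromosome 17 (24175431 to 24205562) and Pcdh19 on the X chromosome (133582860 to 133688987), all on the minus strand. None lies on chromosome 11, where Cyfip2 is.

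The wider list of 89 other epileptic encephalopathy genes gave a similar picture. Of these, 42 were above and 47 below wild type, none passed the adjusted threshold, and 5 had an unadjusted p under 0.05 (the background is 5.07% of all genes). The median log2 fold change was -0.007, beside 0.002 over all tested genes, and it was 0.02 without heterozygous sample 2 and 0.0073 without wild-type sample 1. The log2 fold changes ran from -0.24 to 0.19.

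Cux2, an upper-layer transcription factor, was at -0.24 ± 0.07 (SE, log2), with 4886, 4837 and 5139 normalized counts in heterozygous samples 1, 2 and 3, against 5409, 5810 and 6422 in wild-type samples 1, 2 and 3 (adjusted p = 0.741 by limma-trend). Neurod2, a transcription factor of cortical projection neurons, was at -0.18 ± 0.07 (SE). Rhobtb2 was at -0.13 ± 0.05 (SE) and Cplx1, the SNARE regulator complexin 1, at -0.11 ± 0.05 (SE). The summed excitatory neuron markers are given above, and their part in these values was not tested.

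Among those above wild type, Actl6b, a subunit of the neuronal BAF chromatin complex, was at 0.15 ± 0.06 (SE, log2), with 2881, 2677 and 2797 normalized counts in heterozygous samples 1, 2 and 3, against 2436, 2484 and 2616 in wild-type samples 1, 2 and 3 (adjusted p = 0.948 by limma-trend). Guf1, a mitochondrial translation GTPase, was at 0.14 ± 0.07 (SE), Wwox at 0.19 ± 0.11 (SE) and Grin2d, an NMDA receptor subunit, at 0.14 ± 0.07 (SE). Gad1, the GABA-synthesizing enzyme, was at 0.11 ± 0.06 (SE), and Mdh2, the mitochondrial malate dehydrogenase, at 0.10 ± 0.06 (SE). None of the 112 genes in the 9 lists of relatives passed the adjusted threshold either.

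**Figure D5:**
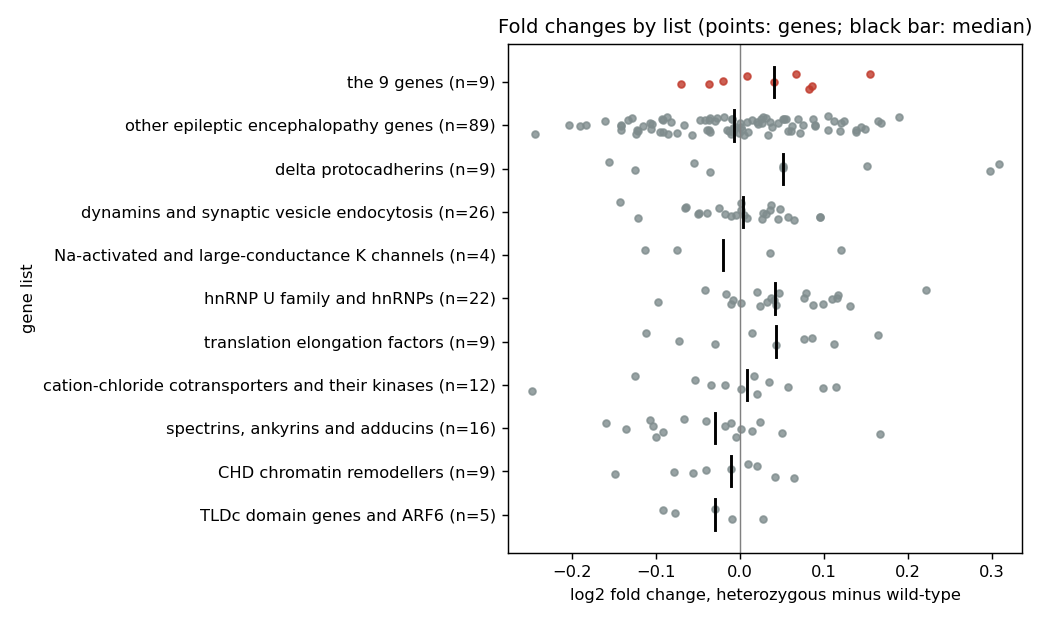
Log2 fold changes, heterozygous minus wild-type (horizontal axis), of the 9 genes, of the 89 other epileptic encephalopathy genes and of the relatives of each of the 9 genes (one point per gene, black bar at the median). All medians lie between -0.03 and 0.05.

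The tissue check covers 12 marker lists. Of 10 inhibitory neuron markers, 8 were above and 2 below wild type. By limma-trend, 3 of them had an unadjusted p under 0.05 (5.07% of all tested genes) and none passed. Their sums overlapped, at 44447 to 46848 in heterozygous and 42632 to 46655 in wild-type samples. Of 10 astrocyte markers, 8 were above and 2 below wild type, and none had an unadjusted p under 0.05. Neuronal, glial and vascular lists were found in full, and of the choroid plexus and ependyma list 4 of 5 genes were found, at summed normalized counts of 258 to 369 in heterozygous and 179 to 274 in wild-type samples. Oligodendrocyte markers (10 of 10 found) summed to 124538 to 132927 in heterozygous and 128049 to 178251 in wild-type samples, with wild-type sample 2 the highest. All 10 were below wild type, at a median log2 fold change of -0.15, and 1 had an unadjusted p under 0.05 by limma-trend. Striatal markers (9 of 9 found) summed to 8633 to 9006 in heterozygous and 10019 to 10816 in wild-type samples. The means of their centred log2 values overlapped. In samples 1, 2 and 3 they were -0.15, -0.08 and 0.03 in heterozygotes and 0.01, 0.30 and -0.12 in wild type. Of the 9 striatal markers, 3 were above and 6 below wild type, at a median log2 fold change of -0.21, and none passed the adjusted threshold. By limma-trend, 3 had an unadjusted p under 0.05 (5.07% of all tested genes). With no overlap of samples, 3 lay below wild type (5.3% of all tested genes) and none above (5.15%). No marker was at 0 in any sample. The depth implied by the lowest values of the table was 32 to 37.5 M reads in heterozygous and 27.2 to 48.1 M in wild-type samples, an estimate from the value of a single read.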

How the data were processed

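RNA of the prefrontal cortex was sequenced from stranded, poly(A)-selecting libraries, per the labels' protocols. The authors deposited a table of a normalized signal per gene (normalized counts). The submitters' processing notes list DESeq2 1.19.11, Salmon 0.11.2, R 3.6.0 and, as the build, GRCm38, with no roles. Their gene filter: not given in the sources used here. Whole reads could not be recovered: within 0.1 of a read, 77.7% to 84.5% of values up to 2 reads but 20.9% to 43.4% of those of 10 to 20 reads were whole. No count test was run. Totals were 36.4 to 37.1 M per sample.

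The test was limma 3.58.1 with a mean-variance trend (R 4.3.3) on log2(normalized count + 1) and genotype as the only term, for genes with a mean of at least 10. Fold changes on this scale understate changes of low genes. The threshold was an adjusted p of 0.05. Symbols were matched for 18122 of 18160 identifiers, and positions, lengths and transcripts are GENCODE M21. Promoters are RefSeq (GRCm38.p6). The procedure was tested on simulated data.

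The 9 genes and all lists were chosen with earlier results of these data known. Named genes are the 9 genes and Cyfip2, the 2 smallest p of each list of relatives, the 6 smallest p per direction of the wider epileptic encephalopathy list, close paralogues and the 3 most alike genes for the 2 members with the smallest p. Some genes that this rule names are not reported here. The 4 within-sample ratios were chosen after the values were seen, and their Benjamini-Hochberg adjusted p was 0.7 each. The 14 alternatives were rescaling by trimmed means (TMM), robust shrinkage, no trend, 2 other filters, 2 other pseudocounts, a replicate block, and 6 fits that each omit a sample.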

Additional observations from a re-analysis of the deposited data

How the results depend on the processing

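None of the 9 genes passed the adjusted threshold under any of the 14 alternatives, where 5 or 6 of them were above wild type. Cyfip2 kept its direction under all 14, with log2 fold changes of -0.66 to -0.62, and missed the threshold with limma without the trend (-0.634, adjusted p = 0.15), where 0 genes passed as lower. With a mean of at least 50, 0 genes passed as higher. Leaving out a sample, 0 to 2 genes passed as higher and 1 to 4 as lower. In the same fits the log2 fold change of Pcdh19 was -0.026 to 0.103 (negative without heterozygous sample 3), that of Sptan1 -0.028 to 0.041 (negative without heterozygous sample 2 or wild-type sample 1), and that of Tbc1d24 -0.059 to 0.017 (positive if wild-type sample 1 is omitted, and 9.7e-05 if heterozygous sample 2 is). The median of the other epileptic encephalopathy genes was -0.028 to 0.015. The cause was not tested. The labels link same-numbered samples by the number only. Their deviations correlated at 0.132, 0.124 and -0.005 for samples 1, 2 and 3, while pairs of unlike number lay between -0.164 and 0.046. Heterozygous sample 3 did not correlate best with its own number. Whether same-numbered samples were processed together was not tested. With the replicate block, 1 gene passed as higher and 1 as lower, as without it, and Hnrnpu had an adjusted p of 0.41. The half-width of the 9 genes' intervals had a median of 0.12 on the log2 scale; what depth adds to it was not tested.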
